A study of Mus musculus with 18 samples.

Results

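Mouse embryonic fibroblasts (MEF), cultured cells from which collagen and other matrix proteins are secreted, were compared after transfection with the Col1a1-miR-29b vector and with empty vector, both under TGF-β. The 6 libraries of these groups, 3 for each, were taken by their labels from the 18 libraries of the series, and the comparison covered all expressed genes. The Col1a1-miR-29b vector is a pcDNA3 plasmid in which a rat Col1a1 promoter drives EGFP together with human miR-29b-1, and in which mRFP1 is made from an SV40 promoter. The empty vector was plain pcDNA3 with neither cassette. TGF-β was added 6 h after transfection and left for 24 h in both groups, and no animal genotype was altered. The other 12 libraries held the same pair of vectors without TGF-β and a CMV-miR-29b vector with and without TGF-β. An effect of miR-29b and an effect of the remaining plasmid sequence, or of the larger mass of DNA that equal molar amounts of a longer plasmid give, cannot be told apart in this design. Poly(A) libraries were sequenced, so the mature microRNA was not measured.

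MicroRNAs of the miR-29 family guide Argonaute proteins to messenger RNAs whose 3′ untranslated regions (3′ UTRs) pair with the microRNA seed, and the targets are then translated less and degraded. Many messengers of collagens, fibrillin, elastin and basement membrane proteins carry such sites, and the family is known as a brake on matrix production in fibroblasts. TGF-β acts through its receptors and the SMAD proteins to raise collagen synthesis and contractile genes, and it lowers miR-29 in many fibroblast cultures.

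The mature sequences of the family are shown because their common seed is the basis of the site counts given further on. The RefSeq entries for the mouse genome (GRCm38.p6) are written 5′ to 3′ with the seed, bases 2 to 8, in capitals. All members had the same seed.
mmu-miR-29a-3p: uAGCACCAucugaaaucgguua
mmu-miR-29b-3p: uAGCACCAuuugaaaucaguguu
mmu-miR-29c-3p: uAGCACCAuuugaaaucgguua

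Total counts of the 6 libraries ran from 70297024 to 78402913. Levels below are in CPM, counts scaled to a common library size after TMM normalization, given for libraries c, d and 1 without a letter of its own (Col1a1-miR-29b, called unlettered) and c, d and e (empty vector). Each group was from 3 repeated experiments. The edgeR p-values rest on a spread estimated over all 18 libraries of the 6 groups, not over the 6 compared libraries alone. They measure variation between repeated experiments only. With the 2 compared groups fitted alone 1072 genes were called, beside 2738. The error given with a log2 change or difference is the standard error (SE) of the fit. The cultures had Col1a1, Col1a2, Vim and other fibroblast markers, but Lum had 0 counts in all 6 libraries and Thy1 and Fap were at 1 CPM or less. Epcam, which defines epithelial cells, was also at 0. Of the 9 fibroblast markers tested 5 were lower with Col1a1-miR-29b, the collagens among them, and their summed level was 3520 to 3660 CPM with the Col1a1-miR-29b vector and 4600 to 5560 CPM with empty vector. Of the 3 epithelial markers tested 1 was lower (summed level 37.5 to 37.8 against 39.7 to 50.9 CPM), and no endothelial, haematopoietic, muscle, neural, pluripotent or adipocyte marker was called. In bulk samples, fewer cells of a type and less RNA per cell cannot be told apart.

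Mir29b-1, the mouse gene of the microRNA whose human copy the vector carries (ENSMUSG00000065604, chr6:31063023-31063093, minus strand, GRCm38), was read at 4, 2 and 6 counts in the Col1a1-miR-29b libraries and at 0 counts in each empty vector library. The groups did not overlap, and an exact permutation test, two-sided, had p = 0.1, the smallest that 3 against 3 libraries allow. Against a floor of 3 counts per library the mean level was at least 1.37-fold higher with Col1a1-miR-29b, but library d, at 2 counts, was itself below that floor. The edgeR adjusted p was 0.0241, and it rose above 0.05, to at most 0.0736, without Col1a1-miR-29b library c, the unlettered library, or empty vector library c or e. With CMV-miR-29b and TGF-β the same gene was at 3.35 ± 0.595 CPM (mean ± SD, n = 3), and it was lower in the Col1a1-miR-29b libraries than in those (log2 difference -5.88 ± 0.57, edgeR adjusted p = 0.00159). Reads of the mouse gene and of the human copy on the vector cannot be told apart in these counts, which are no measure of the processed microRNA.

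Across 21161 genes tested, 2738 (12.9%) differed between the vectors under TGF-β by edgeR's quasi-likelihood test with Benjamini-Hochberg adjustment at 0.05. Of these, 1123 (5.31%) were higher and 1615 (7.63%) were lower with Col1a1-miR-29b. The changes were small, with a median size of 0.334 on the log2 scale (26.1%) among the genes called, and 189 genes (0.893%) were both called and changed at least 2-fold, 123 upward and 66 downward. No gene passed a test against a 2-fold change, although 5518 genes had an unadjusted p under 0.05 against no change. The share of calls that were higher was 41% here, 39.7% with DESeq2 size factors and 52.6% (1469 of 2792) with libraries scaled by total counts. It was 57.3% (1004 of 1752) with limma on log2(FPKM + 1), which changed the test, the unit and the libraries (16 of 18) together. The number of calls was 1498 without Col1a1-miR-29b library c, 1810 without the unlettered one, 1666 without empty vector library c and 1291 without empty vector library e.

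**Figure D1:**
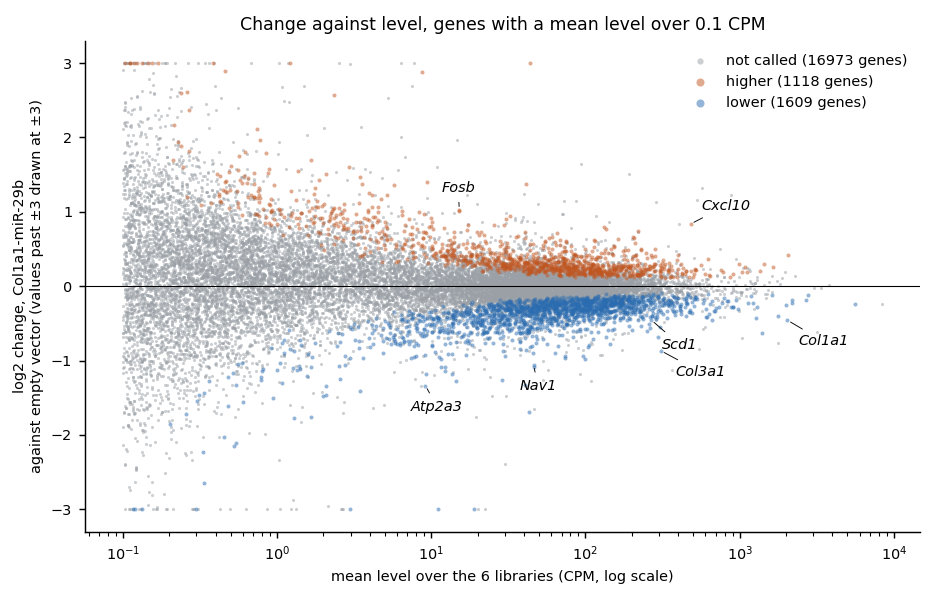
Log2 change (Col1a1-miR-29b minus empty vector, both with TGF-β; vertical axis) against mean level in CPM (horizontal log axis), 1 point per gene, with higher genes in orange, lower genes in blue and genes that were not called in grey. Genes of the lowest mean levels are not drawn, and the largest changes are drawn at the edge of the axis. Most called genes lie within 1 log2 unit of 0 on either side. Of all genes tested 189 were called at or beyond it, including some below the levels drawn.

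A measure of transcript length moved with the groups. Over genes of at least 1 CPM, the median log2 deviation from the mean of all 18 libraries in the longest of 4 equal classes by transcript length, minus that in the shortest class, was -0.15, -0.06 and -0.06 in the Col1a1-miR-29b libraries and 0.07, 0.13 and 0.18 in the empty vector libraries, without overlap. Of the 13892 genes compared at that level, in the class with the longest transcripts (4560 bases or more) 26.2% were lower and 3.25% higher, with a median log2 change of -0.12, whereas in the shortest class (1864 bases or less) 2.02% were lower and 9.96% higher, with a median of 0.11. Counts from a fit with length and GC offsets are given beside many of the groups that follow, but not beside every group where they differ. That fit called 1044 genes higher and 1149 lower over all 21161. Without the offsets, the shares to set beside any group count are the 5.31% higher and 7.63% lower of all genes. Reads of mitochondrial genes took 2.15 to 2.31% of the counts with Col1a1-miR-29b and 2.44 to 2.78% with empty vector, and their part in the results was not tested.

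Collagen genes fell more often than they rose. Of 33 collagen genes tested, 12 fell (36.4%, beside 7.63% of all genes) and 0 rose, and 8 fell with the length and GC offsets. The median log2 change was -0.11 beside 0.02 for all genes. The median transcript of the group had 6048 bases, and in the class with the longest transcripts 26.2% of genes fell. Col3a1, a fibrillar collagen of loose connective tissue (ENSMUSG00000026043), was at 214, 224 and 217 CPM with Col1a1-miR-29b and at 426, 338 and 433 CPM with empty vector. Every Col1a1-miR-29b library was below every empty vector library, and the level was 45.2% lower (log2 change -0.87 ± 0.11, edgeR adjusted p = 0.000449).

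Both chains of type I collagen, the main protein of scar and bone matrix, fell as well. Col1a1 was at 1699, 1736 and 1725 CPM against 2406, 2183 and 2497 CPM (log2 change -0.46 ± 0.08, edgeR adjusted p = 0.00212). For Col1a2 the values were 1059, 1120.5 and 1080.3 CPM against 1770.1, 1468 and 1821 CPM (log2 change -0.63 ± 0.10, edgeR adjusted p = 0.000986). Neither chain overlapped between groups, and empty vector library d was the lowest control for both. Per transcript length, in FPKM as the authors deposited them, the empty vector levels were 314 ± 17.8 for Col1a1, 118 ± 12.0 for Col1a2 and 35.5 ± 4.28 for Col3a1 (mean ± SD, n = 3), so Col3a1 was the least abundant of these 3 chains.

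Col5a3, a minor fibrillar chain that helps set fibril diameter, was at 81.0, 83.2 and 83.8 CPM against 124, 117 and 127 CPM (log2 change -0.57 ± 0.06, edgeR adjusted p = 0.000147). Col12a1, which sits on fibril surfaces, was at 161, 156 and 150.4 CPM against 215, 231 and 233 CPM (log2 change -0.54 ± 0.06, edgeR adjusted p = 0.000224). Both were lower in every Col1a1-miR-29b library, and the change of Col12a1 was -0.32 with the offsets (edgeR adjusted p = 0.00156). Among the basement membrane collagens, Col4a5 fell (log2 change -0.44 ± 0.05, edgeR adjusted p = 0.000418) and Col4a2 fell less (log2 change -0.26 ± 0.05, edgeR adjusted p = 0.00452). The calls of Col4a2 and of Col5a2 (log2 change -0.28 ± 0.05, edgeR adjusted p = 0.00132) were lost with the offsets (edgeR adjusted p = 0.085 and 0.0566). Col4a1, which pairs with Col4a2 in the same protein, was at 141, 183 and 174 CPM against 157, 161 and 209.9 CPM. Its groups overlapped and it was not called (edgeR adjusted p = 0.713), and its log2 change of -0.08 became 0.02 with the offsets.

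**Figure D2:**
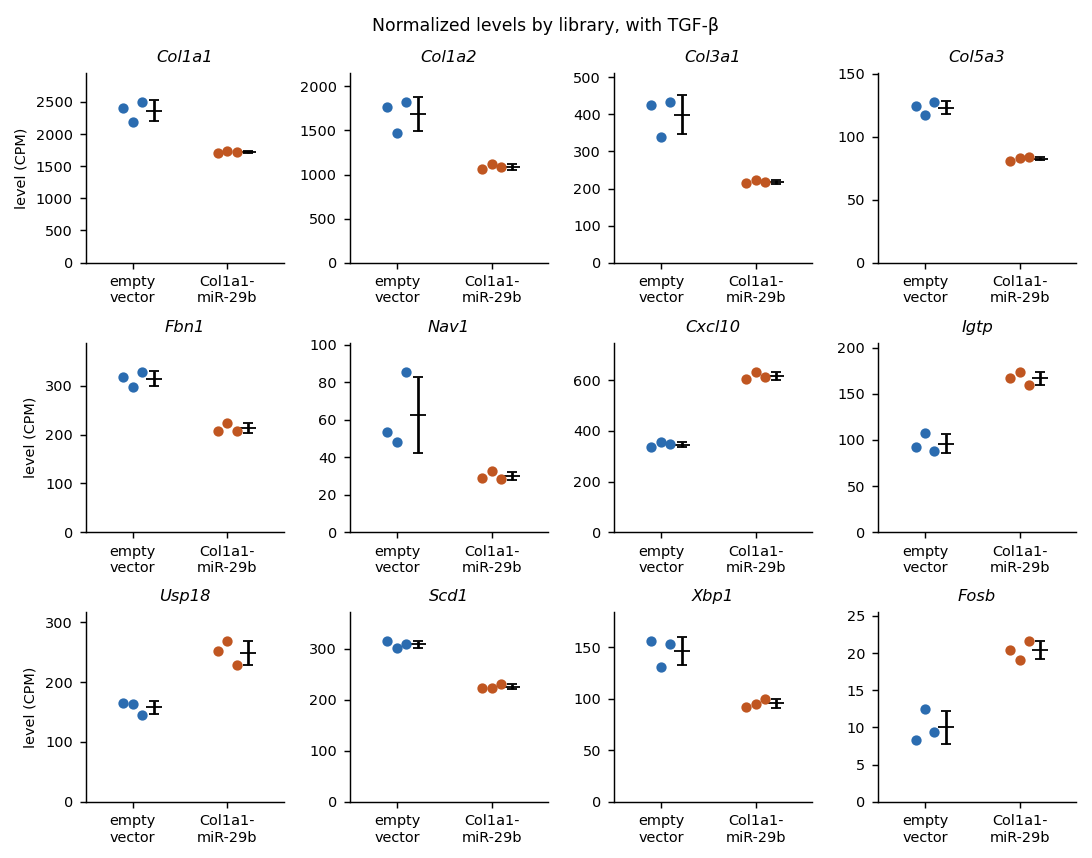
CPM (vertical axes, from 0) of 12 genes in the 3 Col1a1-miR-29b and 3 empty vector libraries with TGF-β; points are libraries and bars are mean ± SD. Col1a1, Col1a2, Col3a1, Col5a3, Fbn1, Nav1, Scd1 and Xbp1 are lower with Col1a1-miR-29b in every library, and Cxcl10, Igtp, Usp18 and Fosb are higher.

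Single matrix genes other than collagens fell. Fbn1, the fibrillin of elastic microfibrils, was at 206, 225 and 208 CPM against 317, 297 and 329 CPM (log2 change -0.56 ± 0.06, edgeR adjusted p = 0.000224), again without overlap. Fn1, which encodes fibronectin, fell (log2 change -0.41 ± 0.07, edgeR adjusted p = 0.00216), as did Tnc, the matricellular protein tenascin-C (log2 change -0.53 ± 0.09, edgeR adjusted p = 0.00203). With the offsets the changes of Fbn1 and Fn1 were -0.37 and -0.26 (edgeR adjusted p = 0.000484 and 0.0123). Of the crosslinking and elastic fibre genes 3 of 21 fell (14.3%, 2 with the offsets), and of the glycoproteins and matricellular genes 3 of 20 fell (15%, 4 with the offsets), beside 7.63% of all genes. None rose in either group, the crosslinking count was 1 without Col1a1-miR-29b library c or the unlettered one or empty vector library c or e, and the median of the crosslinking group was -0.03 here and 0.01 both with total-count scaling and with the offsets. Of 22 basement membrane genes 7 fell (31.8%) and 0 rose (median -0.14). This group shares 8 genes with the collagens, and 3 of the 7 were among those. With the offsets 2 fell, and 4 fell without Col1a1-miR-29b library c and 3 without empty vector library e. Among 30 proteoglycan and hyaluronan genes 1 rose (3.33%) and 0 fell. The gene that rose was Sdc4, a cell surface heparan sulphate proteoglycan (log2 change 0.20 ± 0.04, edgeR adjusted p = 0.00667).

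Among 26 genes that process or export collagen, 3 fell (11.5%) and 1 rose (3.85%), beside 7.63% and 5.31% of all genes. Their median of -0.03 became 0.00213 with total-count scaling, and 5 fell without empty vector library d. With the offsets 4 of these genes fell and 2 rose. Sec24d, a coat protein of the vesicles that carry procollagen out of the endoplasmic reticulum (ER), fell (log2 change -0.43 ± 0.05, edgeR adjusted p = 0.000449), and Crtap, part of the complex that modifies collagen prolines, rose (log2 change 0.35 ± 0.06, edgeR adjusted p = 0.00127). The matrix proteases and inhibitors split, with 6 of 32 higher (18.8%) and 3 lower (9.38%). Plau, the urokinase that activates plasmin, rose (log2 change 0.64 ± 0.12, edgeR adjusted p = 0.00349), and so did Timp2, an inhibitor of matrix metalloproteinases (log2 change 0.32 ± 0.05, edgeR adjusted p = 0.00176). Mmp14, a membrane-bound collagenase (log2 change -0.34 ± 0.07, edgeR adjusted p = 0.00376), and Adamts7 (log2 change -0.79 ± 0.11, edgeR adjusted p = 0.000642) fell. The count of higher genes in this group was 3 without the unlettered Col1a1-miR-29b library and also without empty vector library c or e.

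Of 57 focal adhesion genes 18 fell (31.6%, beside 7.63% of all genes) and 0 rose (median -0.14), and 11 fell and 1 rose with the offsets. Their median transcript had 4906 bases, and in the class with the longest transcripts 26.2% of genes fell. Without empty vector library e the count that fell was 8. Of 24 contractile genes 2 fell (8.33%) and 1 rose (4.17%), shares close to the 7.63% and 5.31% of all genes. Acta2, the smooth muscle actin used as a marker of myofibroblasts, was at 10.8, 9.71 and 10.2 CPM against 10.1, 12.0 and 9.80 CPM, overlapped between groups and was not called (log2 change -0.06 ± 0.14, edgeR adjusted p = 0.856). Of 17 integrins, 1 rose and 1 fell (5.88% each), and Itga2, a subunit of a collagen receptor, was not called (edgeR adjusted p = 0.933).

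TGF-β pathway genes fell in part. Of 53 genes of the pathway 16 fell (30.2%) and 2 rose (3.77%), with a median of -0.13, beside 7.63% and 5.31% of all genes. With the offsets 7 fell and 1 rose. The count that fell was 8 without Col1a1-miR-29b library c, 10 without the unlettered one, 8 without empty vector library c and 9 without empty vector library e. Inhba, the subunit of the TGF-β family ligand activin A, was at 28.9, 33.4 and 32.7 CPM against 55.9, 44.9 and 67.1 CPM, with no overlap (log2 change -0.82 ± 0.13, edgeR adjusted p = 0.00114). Gdf11, a ligand of the same family (log2 change 0.18 ± 0.05, edgeR adjusted p = 0.0359), and Fstl3, a secreted binder of activins (log2 change 0.19 ± 0.06, edgeR adjusted p = 0.0378), were the members that rose. Both are named after their values were seen, and both lost their call whichever library was left out (edgeR adjusted p up to 0.156 and 0.128). Among 30 direct response genes of TGF-β 6 fell (20%) and 1 rose (3.33%), and 4 fell and 1 rose with the offsets. Fn1 and Tnc, which fell, are also in the matricellular group, and Junb, which rose, is also an immediate early gene. Cdkn2b, a cell cycle inhibitor that TGF-β induces, fell (log2 change -0.70 ± 0.12, edgeR adjusted p = 0.00229). Pmepa1, a feedback inhibitor of the pathway, fell (log2 change -0.25 ± 0.07, edgeR adjusted p = 0.0288), but its call was lost with the offsets (edgeR adjusted p = 0.0566) and without Col1a1-miR-29b library c, the unlettered one or empty vector library c or e (edgeR adjusted p up to 0.138).

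Of 53 genes described as miR-29 targets, 20 (37.7%, beside 7.63% of all genes) fell and 0 rose, with a median of -0.23. Their median transcript had 5564 bases, and in the class with the longest transcripts 26.2% of genes fell. This group shares 13 genes with the collagens, and 9 of the 20 were among those. With the offsets 13 fell and 1 rose (median -0.10), and without empty vector library e 13 fell. Nav1, a microtubule-binding navigator protein, was at 28.8, 32.5 and 28.5 CPM against 53.6, 48.0 and 85.6 CPM (log2 change -1.06 ± 0.16, edgeR adjusted p = 0.00104). No library of one group overlapped the other, and empty vector library e was the highest.

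Sites of 8 letters that pair with the seed and its flanking adenosine (TGGTGCTA in the 3′ UTR) are printed for genes that fell and for others that did not. The sequences are from the GENCODE M21 3′ UTRs on GRCm38, 26 bases each on the gene's strand, with capitals marking the 8 letters.
Col1a1, chr11:94952529-94952554, plus strand: aggaatttcTGGTGCTAtagaagctg
Col3a1, chr1:45348973-45348998, plus strand: atgtctcaaTGGTGCTAtaataaata
Col5a3, chr9:20770494-20770519, minus strand: caggcctttTGGTGCTAttcctttcc
Fbn1, chr2:125301164-125301189, minus strand: ttgtctgttTGGTGCTAgtaaattct
Nav1, chr1:135438766-135438791, minus strand: gcctcctcaTGGTGCTAtaacccctc
Col4a1, chr8:11199752-11199777, minus strand: gtcacaacaTGGTGCTActccccccc
Zfp36l1, chr12:80108745-80108770, minus strand: acttgatttTGGTGCTAaagttcccc
The printed sites of Col1a1, Col3a1, Col5a3, Fbn1 and Nav1 were in genes that fell. Col4a1 has the same 8 letters and was not called, and Zfp36l1, which promotes decay of messengers with AU-rich elements, has them and rose, from 83.0, 99.6 and 85.2 CPM with empty vector to 139, 123 and 150.1 CPM (log2 change 0.62 ± 0.09, edgeR adjusted p = 0.000702).

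Over the 14186 tested genes with an annotated 3′ UTR, the median log2 change was -0.07 for the 456 genes with an 8-letter site (8mer), -0.05 for the 1662 with the 7 letters that pair with the whole seed (7mer-m8), -0.01 for the 484 with 6 of them and the adenosine (7mer-A1) and -0.01 for the 11584 with none. Of the 8mer genes 15.8% fell and 3.95% rose, and of the genes without a site 9.92% fell and 6.67% rose. The 3′ UTRs of these classes differed in length, with a median of 2620.5 bases for 8mer genes and 922 bases for genes without a site. Within the longest of 4 equal classes by 3′ UTR length the medians were -0.10 with an 8mer and -0.07 without a site, and with the length and GC offsets they were 0.03 and 0.03. Genes with an 8mer had a median of 0.01 over all 3′ UTR lengths with those offsets, so the direction of this class depended on them.

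**Figure D3:**
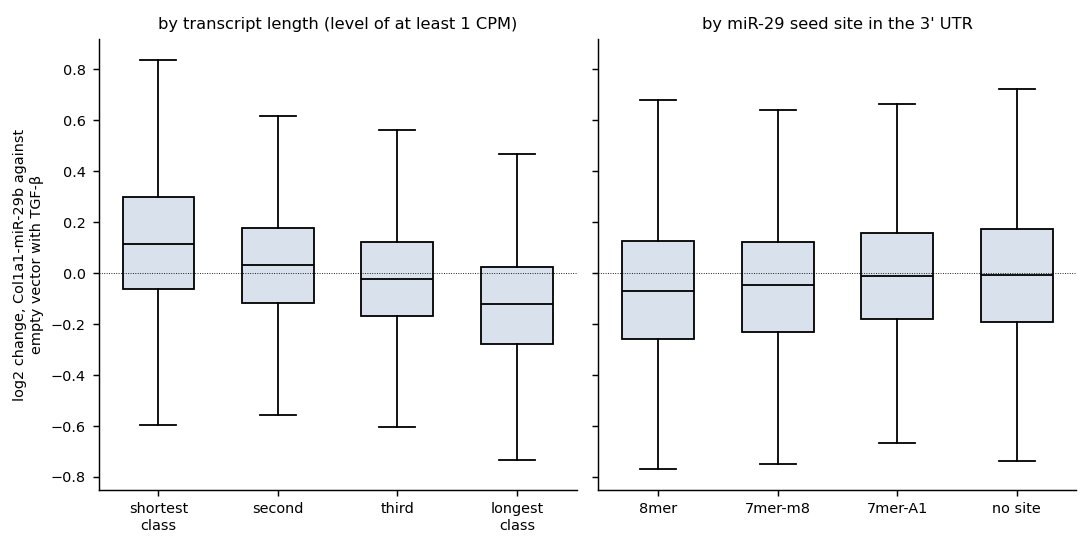
Log2 change (vertical axis) of genes in 4 equal classes of transcript length and by class of miR-29 site in the 3′ UTR; boxes hold the middle of the genes, lines are medians and whiskers reach 1.5 times the box height. By transcript length, among genes of at least 1 CPM, the medians fall from 0.11 in the shortest to -0.12 in the longest class. By site, among all tested genes with an annotated 3′ UTR, they run from -0.07 to -0.01.

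The group with the most genes higher was the interferon response. Of 84 genes tested 39 (46.4%, beside 5.31% of all genes) rose and 1 fell, with a median log2 change of 0.34, and 38 rose with the length and GC offsets. Leaving out single libraries gave 30 to 36 higher genes. Cxcl10, a chemokine that draws activated T cells, was at 606, 634 and 613 CPM against 335, 356 and 346 CPM (log2 change 0.84 ± 0.05, edgeR adjusted p = 6.34e-07). All Col1a1-miR-29b libraries were above all empty vector libraries.

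Igtp, an immunity-related GTPase that protects against intracellular parasites, was at 167, 174 and 159.9 CPM against 92.8, 107 and 87.8 CPM (log2 change 0.80 ± 0.07, edgeR adjusted p = 0.000147). Usp18, the protease that removes ISG15 from proteins and dampens interferon receptor signaling, was at 251, 268 and 229 CPM against 166, 163 and 145 CPM (log2 change 0.66 ± 0.07, edgeR adjusted p = 0.000147). Neither gene overlapped between groups. Gbp2, a guanylate-binding protein (log2 change 0.56 ± 0.06, edgeR adjusted p = 0.000202), Ifi35 (log2 change 0.47 ± 0.05, edgeR adjusted p = 0.000202) and Oas1a, a synthetase of 2-5A that activates RNase L (log2 change 0.42 ± 0.05, edgeR adjusted p = 0.000564), rose as well, and Oas1a is uncertain because reads can be shared with its near-identical paralogs. Ifi27 was the member that fell (log2 change -0.18 ± 0.05, edgeR adjusted p = 0.0238), and it is named after its value was seen. Its call was lost without Col1a1-miR-29b library d or the unlettered one or empty vector library c or e (edgeR adjusted p up to 0.077). Of 21 sensors of foreign nucleic acid 5 rose (23.8%) and 0 fell (3 rose without empty vector library c), and of 30 chemokines and cytokines 6 rose (20%) and 0 fell. With the offsets 7 sensors rose and 2 fell, and 4 chemokines and cytokines rose and 0 fell. The chemokine and cytokine group includes Cxcl10, which is also counted in the interferon response.

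Promoters are shown because many members of this group rose. The letters GAAA, 2 bases of any kind and GAAA again, a core of the interferon-stimulated response element, were searched on both strands from 250 bases before to 50 bases after each RefSeq gene start (GRCm38.p6). They were found for 32 of 62 interferon response genes with a promoter matched (51.6%), for 19 of 26 members that rose and for 13 of 36 not called. Of all genes with a promoter 1079 of 27025 (3.99%) had them, and of the genes tested 463 of 12362 (3.75%). Of all genes that rose 58 of 782 (7.42%) had them, and of those that fell 47 of 1214 (3.87%). The 58 include the 19 interferon response members that rose. Each stretch below is 26 bases with the motif in capitals, on the strand on which it reads in that order. A gene was counted once however many starts or copies of the motif it had.
Cxcl10, chr5:92349085-92349110, minus strand: acgctttgGAAAGTGAAActtacctc
Gbp2, chr3:142620596-142620621, minus strand: aagacagtGAAAGTGAAActaaaaga
Igtp, chr11:58199514-58199539, plus strand: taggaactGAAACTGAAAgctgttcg
Oas1a, chr5:120907528-120907553, minus strand: cttctcggGAAATGGAAActgaaaat
The Oas1a stretch holds a further copy that overlaps the printed one. A match describes letters only, and binding was not measured.

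Immediate early genes, which are transcribed within minutes of a stimulus, rose in part. Of 28 tested 13 rose (46.4%, beside 5.31% of all genes) and 2 fell (median 0.22). With the offsets 12 rose, and 8 rose without Col1a1-miR-29b library c or the unlettered one and 7 without empty vector library c. Fosb, a subunit of the AP-1 factor, was at 20.5, 19.1 and 21.6 CPM against 8.24, 12.5 and 9.34 CPM (log2 change 1.02 ± 0.16, edgeR adjusted p = 0.00103). Its partner Jun was at 305, 290.4 and 324 CPM against 226, 234 and 229.5 CPM (log2 change 0.41 ± 0.05, edgeR adjusted p = 0.000568). The groups did not overlap for either gene. Zfp36, which like Zfp36l1 promotes messenger decay, rose (log2 change 0.72 ± 0.12, edgeR adjusted p = 0.00143), as did Junb (log2 change 0.40 ± 0.07, edgeR adjusted p = 0.00268).

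Lipid synthesis genes fell in part. Of 36 genes of cholesterol and fatty acid synthesis 14 fell (38.9%, beside 7.63% of all genes) and 0 rose (median -0.16), and with the offsets 16 fell and 2 rose. Scd1, the desaturase that makes oleate, was at 222, 223 and 231 CPM against 315, 302 and 310.1 CPM (log2 change -0.45 ± 0.04, edgeR adjusted p = 0.000147), with no overlap and little spread within either group. Acss2, which makes acetyl-CoA from acetate (log2 change -0.56 ± 0.08, edgeR adjusted p = 0.00072), and Fdps, an enzyme of the mevalonate pathway (log2 change -0.32 ± 0.05, edgeR adjusted p = 0.000845), fell as well.

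Of 31 ER protein folding genes 13 fell (41.9%, beside 7.63% of all genes) and 0 rose (median -0.12), and 13 fell with the offsets. Xbp1, a transcription factor of the unfolded protein response, was at 91.6, 94.9 and 99.8 CPM against 156, 131 and 153 CPM (log2 change -0.62 ± 0.07, edgeR adjusted p = 0.000222), and every Col1a1-miR-29b library was below every control. Chac1, a glutathione-degrading enzyme of the stress response, fell (log2 change -0.68 ± 0.08, edgeR adjusted p = 0.000233), and Hsp90b1, an ER chaperone, fell less (log2 change -0.25 ± 0.04, edgeR adjusted p = 0.00094).

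Of 49 respiratory chain genes 15 rose (30.6%, beside 5.31% of all genes) and 0 fell (median 0.12), but 5 were higher and 1 lower with the offsets. The number higher was 4 without Col1a1-miR-29b library c or empty vector library e and 9 without either of the other Col1a1-miR-29b libraries. Cycs, cytochrome c, rose (log2 change 0.42 ± 0.05, edgeR adjusted p = 0.000271). Ribosomal protein genes had 5 of 85 higher (5.88%) and 4 lower (4.71%), beside 5.31% and 7.63% of all genes. Their median of 0.00023 became -0.15 with the offsets (2 higher, 28 lower), and their counts are uncertain because processed copies share their reads. Leaving out any single library gave 0 to 3 higher ribosomal protein genes, and the number lower was 1 without Col1a1-miR-29b library c or empty vector library e and 2 without the unlettered library or empty vector library c. Of 22 glycolysis genes 6 fell (27.3%) and 1 rose (4.55%). The gene that rose was Pdk4, a kinase that restrains pyruvate oxidation (log2 change 0.38 ± 0.12, edgeR adjusted p = 0.0443). Pdk4 is named after its value was seen. It was not called without Col1a1-miR-29b library c or the unlettered one or empty vector library c or e (edgeR adjusted p up to 0.174). Hk2, a hexokinase, fell (log2 change -0.30 ± 0.04, edgeR adjusted p = 0.000677). With the offsets 8 glycolysis genes fell and 1 rose.

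**Figure D4:**
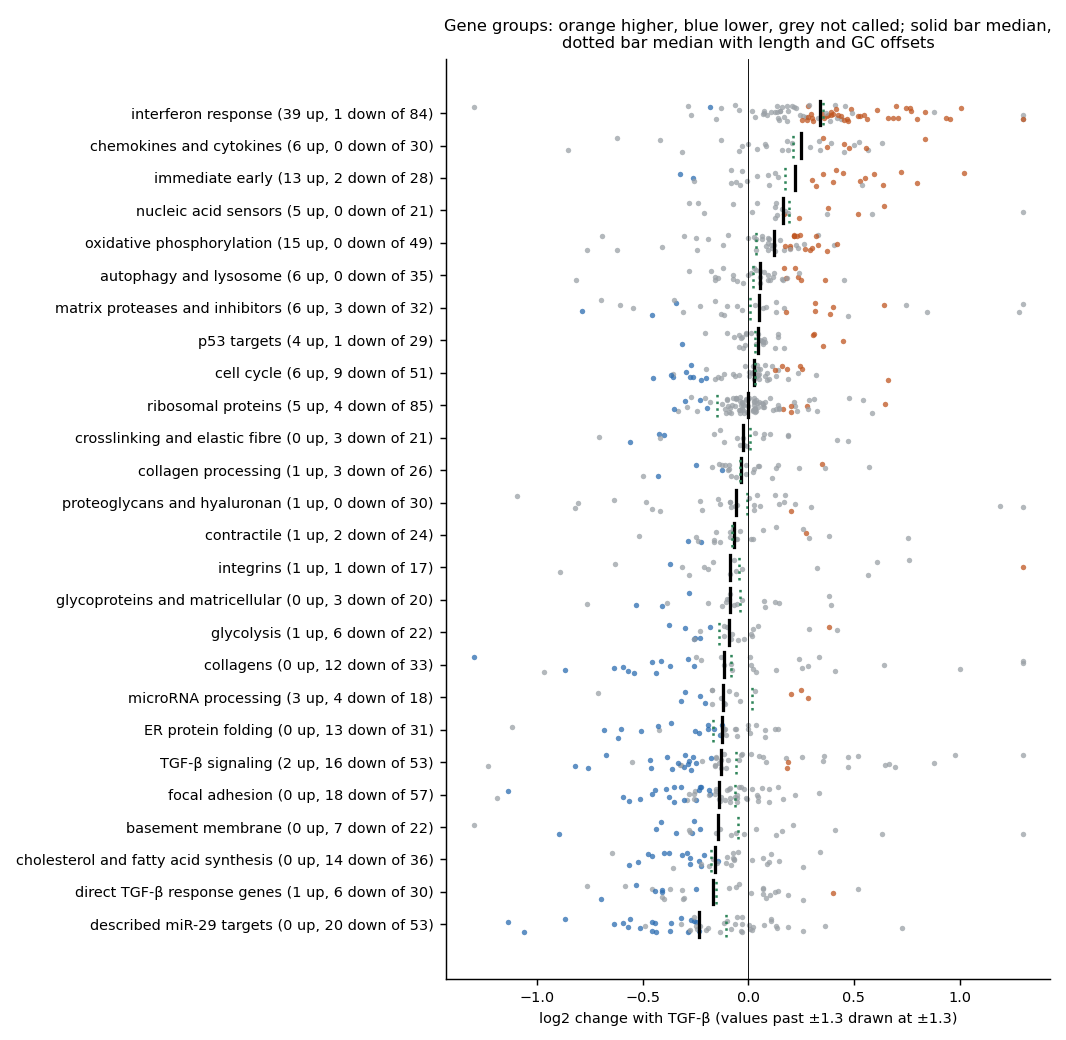
Log2 change with TGF-β (horizontal axis; values beyond 1.3 are drawn at 1.3) of the members of 26 gene groups, with higher members in orange, lower in blue and those not called in grey; the solid bar is the group's median and the dotted bar its median with length and GC offsets. Interferon response genes have the highest median, 0.34, and described miR-29 targets the lowest, -0.23.

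Several of the largest falls were outside these groups. Bend3, a chromatin repressor with BEN domains, was at 1.31, 1.13 and 1.15 CPM against 20.9, 20.3 and 21.2 CPM (log2 change -4.12 ± 0.67, edgeR adjusted p = 0.00143). The groups were far apart. Without TGF-β it was at 18.6 ± 0.437 CPM with Col1a1-miR-29b and 20.4 ± 1.59 CPM with empty vector, and the test of the difference between the media was not passed (edgeR adjusted p = 0.655). Atp2a3, a calcium pump of the ER, was at 5.98, 5.24 and 4.39 CPM against 14.1, 13.0 and 12.3 CPM (log2 change -1.34 ± 0.15, edgeR adjusted p = 0.000233), and Atp2b4, a calcium pump of the plasma membrane, fell as well (log2 change -1.27 ± 0.17, edgeR adjusted p = 0.00062). Tead1, a factor of the Hippo pathway, was at 22.6, 14.9 and 23.6 CPM against 139, 26.1 and 33.2 CPM, and empty vector library c was far above the other controls (log2 change -1.70 ± 0.45, edgeR adjusted p = 0.0221, and 0.136 without that library). The call of Tead1 was also lost without any 1 of the Col1a1-miR-29b libraries. Pcdhga8, whose exons overlap those of its cluster and whose counts are uncertain, was at 0, 0.109 and 0 CPM against 113, 0.206 and 0.11 CPM and lost its call without empty vector library c (edgeR adjusted p = 0.559).

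Of the 15 largest rises 12 were of genes below 10 CPM in both groups. Tmem161a, a membrane protein, was at 58.0, 58.2 and 62.7 CPM against 26.7, 20.8 and 21.4 CPM (log2 change 1.38 ± 0.33, edgeR adjusted p = 0.0137), and its call was lost without empty vector library e (edgeR adjusted p = 0.0633). Trim72, a membrane repair protein (log2 change 1.51 ± 0.27, edgeR adjusted p = 0.00236), and Srms, a tyrosine kinase (log2 change 1.47 ± 0.25, edgeR adjusted p = 0.00213), rose as well. Several of the largest rises, Gm3488 and Rpl36a-ps3 among them, are predicted genes or pseudogenes that share sequence with other genes, and their counts are uncertain.

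The effect was set beside that of the same vectors without TGF-β, which shared no library with it. There 1327 of 21161 genes (6.27%) were called, 543 higher and 784 lower. The number called in both media in the same direction was 995, which is 36.3% of the genes called with TGF-β and 75% of those called without. The measure of transcript length also differed between the vectors without TGF-β. It was -0.09, -0.17 and -0.06 with Col1a1-miR-29b and 0.002, 0.09 and 0.06 with empty vector, without overlap. The median log2 change there was 0.09 in the shortest class and -0.08 in the longest. Its part in the shared calls was not tested. The difference between the effects was called for 0 genes (0%) by edgeR, with 961 at an unadjusted p under 0.05, and for 27 by DESeq2. The collagens had 12 of 33 lower with and 10 lower without TGF-β, and the interferon response genes 39 and 38 of 84 higher.

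Values of single genes in both media are given for the groups described above. Cxcl10 had a log2 change of 0.84 with TGF-β and 0.73 without. Col3a1 had -0.87 with and -0.59 without. For Nav1 the values were -1.06 and -0.05, and for Inhba -0.82 and 0.11. The difference between the media was not called for any of these 4 genes (edgeR adjusted p = 1, 1, 0.655 and 0.412).

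With TGF-β, CMV-miR-29b against the same empty vector libraries had 2 genes called (0.00945%) by edgeR and 264 by DESeq2, and 160 by edgeR without empty vector library d. These comparisons share their controls, so their values are given side by side only. The median of the described miR-29 targets was -0.23 for Col1a1-miR-29b and -0.20 for CMV-miR-29b, and that of the interferon response genes was 0.34 and 0.02. Col3a1 had a log2 change of -0.87 for Col1a1-miR-29b and -0.65 for CMV-miR-29b (edgeR adjusted p = 0.0559 for the latter). Cxcl10 had 0.84 and 0.01.

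The direct test of Col1a1-miR-29b minus CMV-miR-29b, both with TGF-β, called 408 genes (1.93%), 193 higher and 215 lower with Col1a1-miR-29b. It called 59 without Col1a1-miR-29b library c, 92 without library d and 63 without the unlettered one, and 217 with the offsets. Of the interferon response genes 27 of 84 were higher and 1 lower with Col1a1-miR-29b, and of the collagens 2 of 33 were lower. Without Col1a1-miR-29b library c, library d and the unlettered one, 15, 16 and 20 interferon response genes were higher and 1 collagen was lower. Cxcl10 (log2 difference 0.83 ± 0.05, edgeR adjusted p = 7.62e-07), Igtp (log2 difference 0.64 ± 0.07, edgeR adjusted p = 0.00142) and Oas1a (log2 difference 0.48 ± 0.05, edgeR adjusted p = 0.00142) were higher with Col1a1-miR-29b than with CMV-miR-29b. Scd1 (log2 difference -0.33 ± 0.04, edgeR adjusted p = 0.00374) and Fn1 (log2 difference -0.35 ± 0.07, edgeR adjusted p = 0.0248) were lower, the call of Fn1 being lost without any 1 of the Col1a1-miR-29b libraries (edgeR adjusted p up to 0.0839). For Col3a1 the difference was not called (log2 difference -0.22 ± 0.11, edgeR adjusted p = 0.35).

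**Figure D5:**
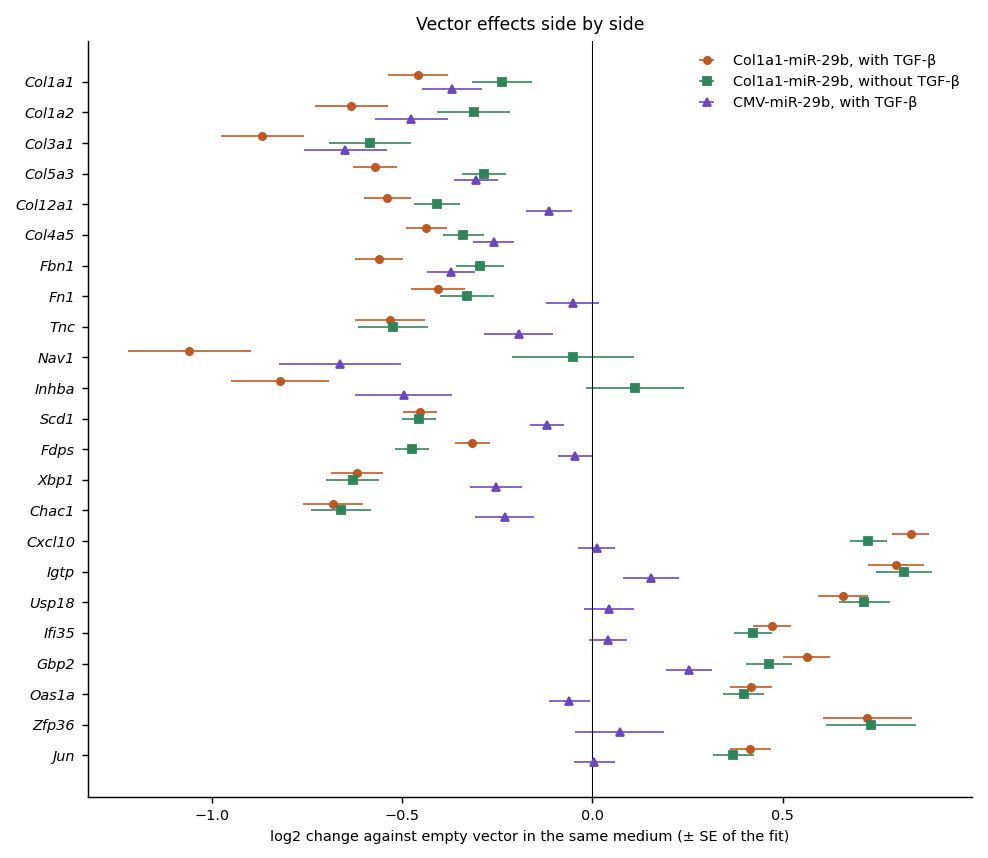
Log2 change against empty vector in the same medium (horizontal axis; point ± SE of the fit) of 23 genes for Col1a1-miR-29b with TGF-β, Col1a1-miR-29b without TGF-β and CMV-miR-29b with TGF-β; the first and the last share their control libraries. For Cxcl10 the values are 0.84, 0.73 and 0.01, and for Col3a1 -0.87, -0.59 and -0.65.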

How the data were processed

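RNA was taken from MEF cells 24 h after TGF-β was added, poly(A) libraries were sequenced, and the authors deposited 1 matrix of gene counts with FPKM beside them. Per the study's methods reads were aligned with HISAT2 to the Ensembl mouse genome and assembled with StringTie, and its text credits the FPKM to DESeq2, while the counting method is not given in the sources used here. The submitters' processing notes name FastQC, cutadapt, HISAT2, StringTie and mm9, but 52506 of 55450 gene coordinates in the deposited count matrix equal those of GENCODE M21 (GRCm38), which was used for all positions. Groups were taken from sample labels. In both Col1a1-miR-29b groups 1 library has a column letter found in no title, and it is called unlettered. The 2 per-sample FPKM columns that could not be assigned were not used, so limma on FPKM had 16 libraries. Fits with the replicate block also had 16, because the unlettered libraries were left out.

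Counts as deposited were filtered with filterByExpr (21161 genes left), TMM scaled and fitted with edgeR 4.0.16 (R 4.3.3), quasi-likelihood, 1 mean for each of the 6 groups over 18 libraries, with Benjamini-Hochberg adjustment at 0.05. Values of genes are TMM-scaled CPM computed from these counts. Alternatives were DESeq2 1.42.0 with its size factors, total-count scaling, other filters, the compared groups alone, a replicate block, splines (5 degrees of freedom) of transcript length and GC content as offsets, counts divided by 4, limma 3.58.1 on log2(FPKM + 1) and log2(FPKM + 0.1), and each library left out. The scripts were tested on simulated data. The same letters were not taken as pairs, since deviations of same-letter libraries had a mean correlation of 0.0125 (36 pairs) and of -0.0703 and -0.0211 in the compared groups. 3′ UTR sites used the longest annotated 3′ UTR of a gene of at least 50 bases, and promoters and microRNAs are RefSeq entries.

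The genes named are the 15 largest rises and 15 largest falls without overlap and at 1 CPM or more, up to 6 called members of each list by p, a fixed choice of the genes the study names (Snord27 among them was not analysed here), and the 8mer genes and contrasts with the smallest p. Members, lists and rules were chosen with earlier results of these data known.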

Additional observations from a re-analysis of the deposited data

How the results depend on the processing

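At 70297024 to 78402913 counts per library, genes of few counts limit what can be read, and 3 libraries a group limit every call. The number of genes called with TGF-β (2738) was 1072 with the 2 groups alone (29.4% higher), 758 with offsets and block together, 1752 and 1632 with limma on log2(FPKM + 1) and log2(FPKM + 0.1) (57.3% and 55.8% higher), 1659 without the unlettered libraries, an alternative chosen after seeing the data, and 1291 to 3182 with 1 library left out. At least 2-fold, 189 became 61 with the 2 groups alone, 66 with offsets and block, 25 with limma on log2(FPKM + 1), 0 in a test against 2-fold, and 95 to 308 with 1 library left out. The interaction (0) was 27 with DESeq2 and 0 to 1 with 1 library left out. Between the vectors, 408 became 1091 with DESeq2, 217 with offsets and 59 to 504 with 1 library left out. Without TGF-β, 1327 became 2321 with DESeq2. For CMV-miR-29b, 2 became 264 with DESeq2, 9 with offsets, 1 with counts divided by 4 and 2 to 160 with 1 library left out.

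Same-letter libraries did not deviate together, and the replicate block moved the counts to 1152 with TGF-β, 97 at least 2-fold, 2 for the interaction, 13 between the vectors and 161 without TGF-β. The block fit had 16 libraries, because the unlettered ones were left out. Those 16 without a block gave 1659 calls with TGF-β, so the fall from 2738 is not that of the block alone. Offsets with the block gave 2, 16 and 174 for the last 3 of these. Of the calls with the block 1098 were also among the 2738 called over all 18 libraries, in the same direction. Over all 21858 genes tested, 387 rose and 765 fell with the block, and 390 rose and 368 fell with offsets and block. Over all 18 libraries without either, 1123 rose and 1615 fell of 21161. The interferon response count was 29 higher with the block and 28 with offsets and block. In the same order, lower genes numbered 9 and 6 for collagens, 13 and 7 for described miR-29 targets, and 12 and 12 for ER protein folding. They numbered 8 and 2 for focal adhesion, 8 and 0 for the TGF-β pathway, and 3 and 1 for basement membrane. Higher genes numbered 6 and 5 for immediate early genes, 6 and 2 for the respiratory chain, 0 and 0 for p53 targets, and 0 and 3 for autophagy and lysosome.

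The 8mer median (-0.0689) was -0.0328 with total-count scaling, 0.0146 with offsets, and -0.0893 to -0.0581 with 1 library left out. In classes 1 to 4 by 3′ UTR length it was 0.0129, -0.000948, -0.0602 and -0.101. Genes without a site had medians of 0.0418, 0.00706, -0.0277 and -0.0712 in these classes, so without offsets the 8mer median was the lower in each. With the offsets the 8mer medians in classes 1 to 4 were -0.012, 0.00949, -0.054 and 0.0345. Those of genes without a site were -0.02, -0.0133, -0.0117 and 0.0319, so the 8mer median was then the lower in class 3 only. Over all lengths, genes without a site had -0.00551, 0.0305 with total-count scaling and -0.00654 with offsets. The 7mer-m8 median (-0.0462) was -0.00997 with total-count scaling, 0.0116 with offsets, -0.0282 with the shortest 3′ UTR of a gene, 0.0371, -0.0245, -0.0168 and -0.0842 in classes 1 to 4, and -0.0602 to -0.0429 with 1 library left out. The direction of 2 called genes turned, Rpl38 (0.28) to -0.0295 with offsets and block and Ago2 (-0.21) to 0.0213 with offsets and 0.0313 with both. Among genes not called, Col4a1 was 0.0163 with offsets, and Olr1 was -0.0235 with the block and -0.0142 without the unlettered libraries. With 1 library left out the range was -0.168 to 0.0666 for Col4a1 (above 0 without Col1a1-miR-29b c, 0.0191, or empty vector e), -0.11 to 0.0345 for Acta2 (empty vector d), -0.566 to 0.207 for Itga2 (empty vector d), -0.773 to 0.316 for Cpt1b (Col1a1-miR-29b c), -0.661 to 0.218 for Gm35248 (empty vector c) and -0.118 to 0.22 for Olr1 (below 0 without the unlettered library, -0.0154, or empty vector c). The cause of these changes was not tested.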

Other observations

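Further groups of genes were changed in part. Of 51 cell cycle genes 9 fell (17.6%) and 6 rose (11.8%), beside 7.63% and 5.31% of all genes (median log2 change 0.03). Under length and GC offsets 6 were lower and 9 higher, and 3 were higher without the unlettered Col1a1-miR-29b library. Top2a, the topoisomerase that untangles chromosomes at mitosis, fell (log2 change -0.28 ± 0.04, edgeR adjusted p = 0.000449; -0.16 with the offsets), and so did Cenpa, the histone of centromeres (log2 change -0.45 ± 0.09, edgeR adjusted p = 0.00364). Ccne1, the cyclin E1 that drives entry into S phase, rose (log2 change 0.66 ± 0.10, edgeR adjusted p = 0.00114). Of 29 p53 target genes 4 rose (13.8%) and 1 fell (3.45%). The number higher was 2 without Col1a1-miR-29b library c or empty vector library c and 1 without the unlettered library. Tigar, a phosphatase that lowers glycolytic flux, rose (log2 change 0.35 ± 0.07, edgeR adjusted p = 0.00308). With the offsets 6 p53 target genes rose and 0 fell.

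Of 18 genes of microRNA processing and silencing 3 rose (16.7%) and 4 fell (22.2%), beside 5.31% and 7.63% of all genes. Their median of -0.12 became 0.02 with the offsets (4 higher, 1 lower). The number that rose was 1 without Col1a1-miR-29b library d, the unlettered one or empty vector library c or e, and the number that fell was 2 without Col1a1-miR-29b library c, the unlettered one or empty vector library e. Dgcr8, the partner of Drosha in cutting primary microRNAs, rose (log2 change 0.25 ± 0.06, edgeR adjusted p = 0.00931). Tnrc6b, a scaffold of the silencing complex, fell (log2 change -0.32 ± 0.06, edgeR adjusted p = 0.0029), but with the offsets its edgeR adjusted p was 0.471. Of 35 autophagy and lysosome genes 6 rose (17.1%) and 0 fell. The count that rose was 3 without the unlettered Col1a1-miR-29b library or empty vector library c and 2 without empty vector library e. Ulk1, the kinase that starts autophagy, rose (log2 change 0.36 ± 0.08, edgeR adjusted p = 0.00604).

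Several chemokines other than Cxcl10 rose. Ccl7, which draws monocytes, rose (log2 change 0.56 ± 0.09, edgeR adjusted p = 0.00129), as did Ccl5, which draws T cells (log2 change 0.45 ± 0.07, edgeR adjusted p = 0.00113), and Ccl2 (log2 change 0.37 ± 0.07, edgeR adjusted p = 0.00244). Among the sensors and their adaptors Dhx58, a relative of RIG-I (log2 change 0.52 ± 0.10, edgeR adjusted p = 0.00445), and Myd88, the adaptor of most Toll-like receptors (log2 change 0.38 ± 0.06, edgeR adjusted p = 0.00158), rose. The call of Ccl5 was lost with the length and GC offsets (edgeR adjusted p = 0.112), whereas those of the other genes in this paragraph held.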
